A study of Mus musculus with 12 samples.

Results

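Barcodes with 2 TRB chains of different TRBV were examined in T cell receptor (TCR) libraries of immune cells from mouse tumours. TRB and TRA are the loci of the β and α chains of the receptor, and a TRBV segment is the variable segment that a rearranged TRB gene uses. Chains that repeated the V segment, J segment and CDR3 bases of another chain on the same barcode were dropped. The members were then the barcodes left with exactly 2 TRB chains whose V segments differed. There were 733 of them, which is 3.22% of the 22768 barcodes with a TRB chain, 39.8% of the 1844 barcodes with 2 TRB chains, and a small part of the 23219 barcodes in all. The rule has no threshold of level. Members were chosen by the measured number of TRB chains and their V segments, so neither is tested as a finding.

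C57BL/6J mice of 6 to 8 weeks carried subcutaneous tumours of MC38, a colon carcinoma line of that strain. The derivative used is called a p53 knockout, and the labels assign it a p53 substitution in conflicting notations. When they measured about 50 to 100 mm³, on day 10, the tumours were injected with 40 µg of LNP-P20-mAb (3 libraries) or of LNP-Ctrl (3 libraries). All groups thus share the tumour line, the injection and the dose. Leukocytes were sorted on their surface protein CD45, and about 10000 per sample were loaded for droplet libraries enriched for TCR transcripts. The labels do not say whether a library is 1 mouse or a pool. Gene expression samples of the same groups (6) were not used here, so no cell type beyond the presence of a TCR chain could be checked. No chain of another receptor locus was listed.

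Each T cell carries 2 copies of the TRB locus. In most cells only 1 gives a working β chain, which is called allelic exclusion. TRA is excluded less strictly, and cells with a pair of rearranged α chains are common. A T cell that keeps both β chains (allelic inclusion) passes the pair and its α chain to its daughters. A droplet that caught a pair of unrelated cells (a doublet) instead joins the β and α chains of both. The V segments of TRB lie upstream of 2 clusters of J segments, TRBJ1 and TRBJ2, each with its own constant segment. TRBV31 lies beyond them in the opposite orientation and joins by inversion.

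LNP-P20-mAb 1 and LNP-P20-mAb 2 held 3 TRB pairs in common, each with the same TRA in both libraries, while none of the other 14 combinations of libraries shared a pair. The pairs were TRBV13-3 with TRBV2 (4 and 2 barcodes), TRBV16 with TRBV19 (1 and 5) and TRBV12-1 with TRBV13-1 (2 and 1). The labels do not say how these libraries are related, and each single-value comparison was also computed with their mean as 1 sample, while for segments their counts were pooled. Equal cell barcodes numbered 11 to 29 per combination of libraries, and 24 members had a barcode that another library also held. Libraries held 2408 to 4748 barcodes with a TRB chain and 85835 to 145847 UMIs (unique molecular identifiers, which count captured transcripts). P-values measure the spread between libraries, which may be technical.

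Of the 5 TRB pairs found on the most barcodes of a library, 4 are given as the CDR3 bases of both chains, because their recurrence separates them from pairs seen on 1 barcode. Capitals mark the joined bases, that is, those outside the start shared by most chains of the same V segment and the end shared by most chains of the same J segment (a base had to be the most common one in at least 60% of those chains). A further TRBV12-1 chain is included because it occurred with the α chain of pair 1.
TRBV13-1, TRBJ1-3 (pair 1): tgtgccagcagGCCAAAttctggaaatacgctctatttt
TRBV12-1, TRBJ1-4 (pair 1): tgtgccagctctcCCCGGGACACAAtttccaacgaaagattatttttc
TRBV12-1, TRBJ1-4 (with the same α chain): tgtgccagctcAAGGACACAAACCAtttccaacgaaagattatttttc
TRBV16, TRBJ2-7 (pair 2): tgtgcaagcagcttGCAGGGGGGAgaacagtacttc
TRBV19, TRBJ1-3 (pair 2): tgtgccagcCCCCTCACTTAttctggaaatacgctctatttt
TRBV15, TRBJ1-1 (pair 3): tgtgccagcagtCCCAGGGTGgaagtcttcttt
TRBV13-3, TRBJ2-7 (pair 3): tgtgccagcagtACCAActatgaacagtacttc
TRBV13-3, TRBJ2-2 (pair 4): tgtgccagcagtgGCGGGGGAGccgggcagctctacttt
TRBV2, TRBJ2-7 (pair 4): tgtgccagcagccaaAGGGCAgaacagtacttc

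The number of members differed widely between libraries. LNP-P20-mAb 1, 2 and 3 held 22, 24 and 139 members, against 94, 240 and 214 in LNP-Ctrl 1, 2 and 3. As a share of barcodes with a TRB chain this was 0.536%, 0.997% and 4.06% in the LNP-P20-mAb libraries, against 2.50%, 5.05% and 4.95% in the LNP-Ctrl libraries. The first 2 LNP-P20-mAb libraries lay below every other library, and LNP-P20-mAb 3 lay within the range of the LNP-Ctrl libraries. The exact 95% Clopper-Pearson intervals, which cover counting error only, were 0.336% to 0.810% in LNP-P20-mAb 1 and 4.32% to 5.64% in LNP-Ctrl 3. The means were 1.86% ± 1.92 in LNP-P20-mAb libraries and 4.17% ± 1.45 in LNP-Ctrl libraries (SD, n = 3 each). An exact two-sided permutation test gave p = 0.2 for this difference (0.267 adjusted by Benjamini-Hochberg over 8 comparisons of the treatments). With 3 libraries against 3 the smallest p is 0.1, so none of these comparisons could pass 0.05.

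Expanded clones weigh on shares of barcodes, so members were also counted as distinct pairs. There were 637 distinct pairs. Of the distinct TRB sets (a single chain or a pair of chains, each counted once per library), 2.65%, 3.53% and 4.80% were pairs of different TRBV in LNP-P20-mAb 1, 2 and 3, against 4.35%, 6.16% and 5.20% in LNP-Ctrl 1, 2 and 3. The range narrowed and the groups still overlapped, with means of 3.66% ± 1.08 and 5.24% ± 0.905 (SD, n = 3 each, exact permutation p = 0.2, adjusted p = 0.267).

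**Figure D1:**
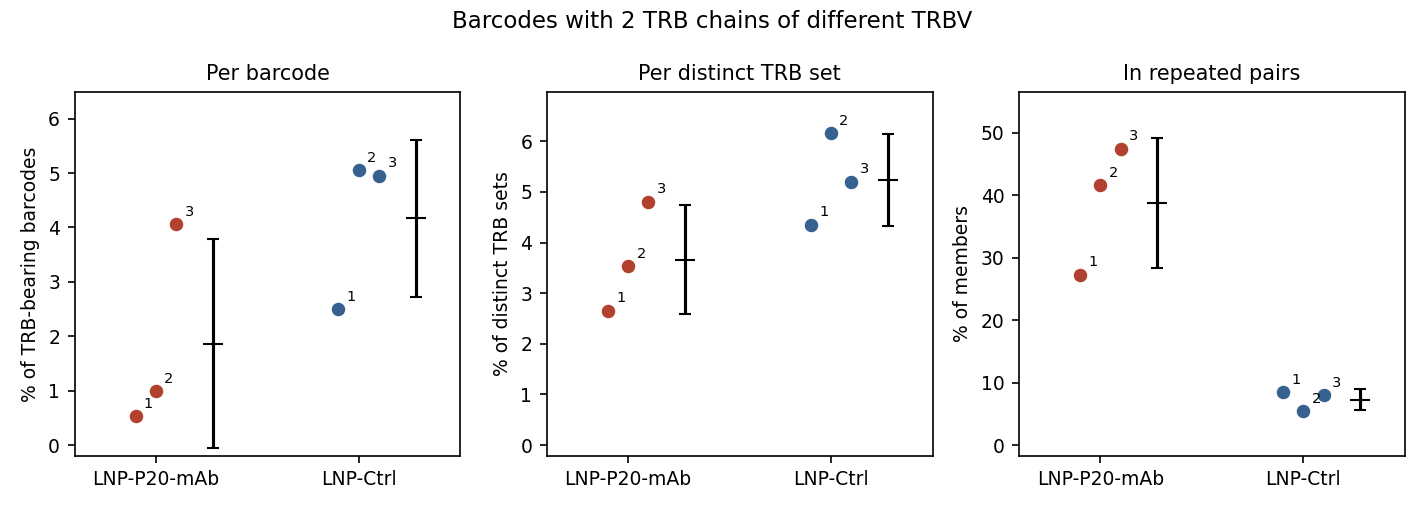
Share of barcodes with 2 TRB chains of different TRBV among all barcodes with a TRB chain (left), share of such pairs among distinct TRB sets (middle), and share of members in a pair found on 2 or more barcodes of the library (right). Points are libraries with their replicate number, LNP-P20-mAb left of LNP-Ctrl, and bars show mean ± SD (n = 3). The groups overlap in the first 2 panels and do not overlap in the last, where LNP-P20-mAb libraries lie at 27.3% to 47.5% and LNP-Ctrl libraries at 5.42% to 8.51%.

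Barcodes with 2 TRB chains of the same TRBV, the closest class, numbered 1111 and were made up differently. Of these, 988 were in pairs found on 2 or more barcodes, and the most frequent such pair took 141 barcodes of LNP-P20-mAb 1. Members made up 4.11%, 11.4% and 39.6% of the barcodes with 2 TRB chains in LNP-P20-mAb 1, 2 and 3, against 43.5%, 79.5% and 93.4% in LNP-Ctrl 1, 2 and 3. Barcodes with 2 TRA chains made up 5.07%, 3.74% and 1.89% of the same-TRBV class in LNP-P20-mAb 1, 2 and 3, and 5.74%, 9.68% and 20% in LNP-Ctrl 1, 2 and 3, where the class had as few as 15 barcodes. The share among members, given with the α chains, was higher in each of the 6 libraries.

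Pairs of TRB chains that recurred held a small part of the members but a large part in some libraries. Counted within each library, 96.2% of the distinct pairs were on 1 barcode. The other 24 pairs were on 2 or more barcodes and held 120 members, or 16.4%. They held 27.3%, 41.7% and 47.5% of the members of LNP-P20-mAb 1, 2 and 3, against 8.51%, 5.42% and 7.94% in LNP-Ctrl 1, 2 and 3. Every LNP-P20-mAb library lay above every LNP-Ctrl library. The means were 38.8% ± 10.4 and 7.29% ± 1.65 (SD, n = 3 each), and the exact permutation test gave its smallest possible p of 0.1 (adjusted p = 0.2). The LNP-P20-mAb libraries had 2, 3 and 3 recurring pairs among 18, 17 and 76 distinct pairs. The LNP-Ctrl libraries had 4, 5 and 7 among 90, 232 and 204, so these shares overlapped. Pair 1 held 46 of the 66 barcodes in recurring pairs of LNP-P20-mAb 3. The TRB of barcodes with 1 TRB also recurred more in every LNP-P20-mAb library. It was found on another barcode in 86.2%, 85.2% and 59.2% of cases, against 50.8%, 27.4% and 13.7%. A difference beyond this was not tested.

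The recurring pairs were closely tied to 1 α chain. On 118 of the 120 barcodes the pair stood with its most frequent TRA, and in 22 of the 24 pairs every barcode carried that TRA. For every pair, its barcodes made up at least a share of 0.5 of all barcodes of the library with either chain. In 18 pairs neither chain was found alone. For the other pairs, 14 barcodes carried 1 chain of the pair as their only TRB, and all 14 carried the TRA of the pair.

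Pair 1 joined TRBV13-1 and TRBV12-1 and stood on 46 of the 139 members of LNP-P20-mAb 3. All 46 carried the same TRAV6N-6 and TRAJ37 chain, and 1 of them had a second TRA. The TRBV13-1 chain had a median of 29 UMIs (range 3 to 75) and the TRBV12-1 chain a median of 11 UMIs (range 2 to 34). TRBV13-1 was the stronger chain on 45 of the 46 barcodes. It was the only TRB on 6 further barcodes, all with the same TRA, and occurred with another TRB on 1, while this TRBV12-1 chain was never found without it. Another 18 barcodes with 1 TRB carried the same TRA together with a different TRBV12-1 and TRBJ1-4 chain, printed with pair 1, at a median of 14 UMIs (range 3 to 36). That chain uses the same V and J segments as the weaker chain of the pair, with other joined bases.

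The other named pairs were smaller. TRBV16 and TRBV19 stood on 5 barcodes of LNP-P20-mAb 2 with a TRAV13N-2 and TRAJ30 chain, with medians of 18 and 12 UMIs. TRBV15 and TRBV13-3 stood on 4 barcodes of LNP-Ctrl 3 with a TRAV12N-2 and TRAJ22 chain, with medians of 64.5 and 35 UMIs. TRBV13-3 and TRBV2 stood on 4 barcodes of LNP-P20-mAb 1 with a TRAV6D-4 and TRAJ42 chain, with medians of 28 and 15.5 UMIs. Of the pairs on fewer barcodes, 6 were on 3 barcodes and 13 on 2. Mouse TRAV segments exist in near-identical copies, so a TRAV name with D or N may stand for another copy.

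**Figure D2:**
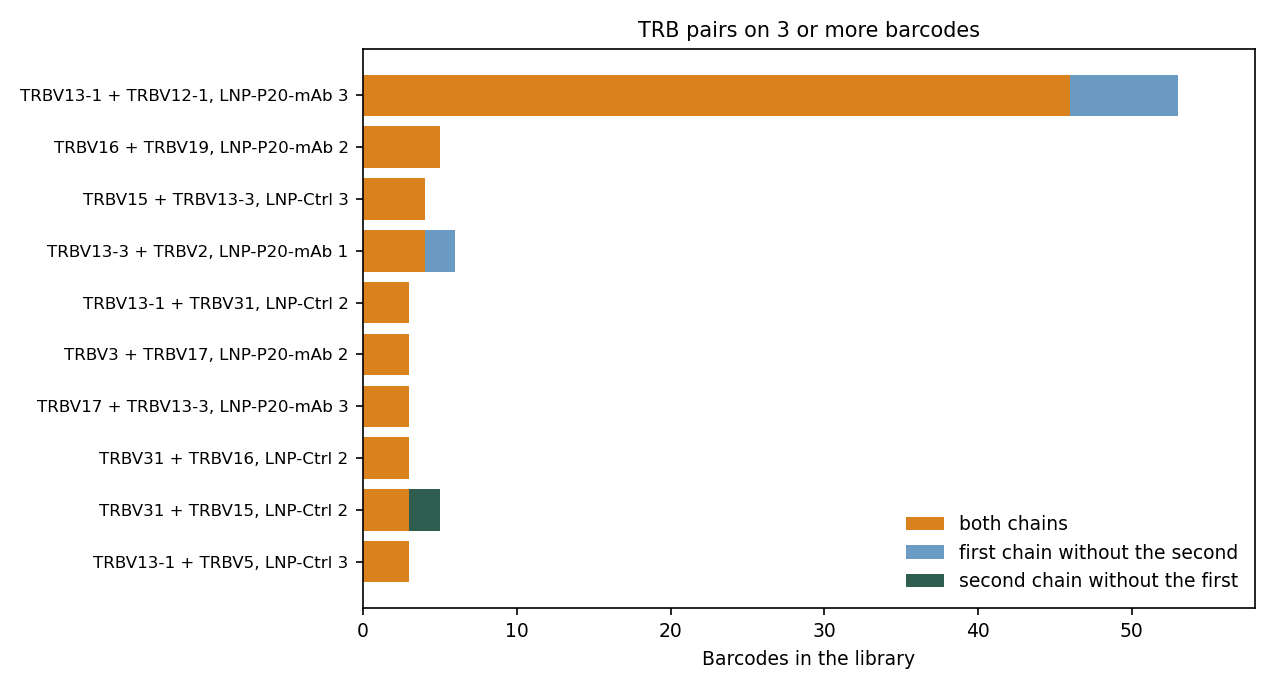
TRB pairs on 3 or more barcodes of a library (1 pair is not shown), with the number of barcodes that carry both chains (orange), the first chain without the second (blue) and the second without the first (green). The TRBV13-1 and TRBV12-1 pair stands out with 46 barcodes, and most pairs have no barcode with 1 of the chains alone.

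The number of α chains gave a second view of the members. No barcode in the files had more than 2 TRA or more than 2 TRB chains, so a barcode with the full set of chains of a pair of cells, each with 2 TRA, would not show. No member lacked a TRA, and neither did any barcode of the same-TRBV class, while 5.98% to 11.8% of barcodes with 1 TRB did. Of the members, 520 had 1 TRA and 213 had 2.

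Members with 2 TRA were 22.7%, 12.5% and 12.9% in LNP-P20-mAb 1, 2 and 3, and 36.2%, 32.5% and 35.0% in LNP-Ctrl 1, 2 and 3. In barcodes with 1 TRB the same share was 7.39%, 7.06% and 22.1% in the LNP-P20-mAb libraries, and 10.3%, 11.2% and 13.0% in the LNP-Ctrl libraries. Members lay above barcodes with 1 TRB in 5 of 6 libraries and below them in LNP-P20-mAb 3. The shares averaged 25.3% ± 10.8 in members and 11.8% ± 5.50 in barcodes with 1 TRB (SD, n = 6). The exact sign-flip permutation test of the 6 within-library differences, which averaged 13.5 ± 13.2 percentage points, gave p = 0.0938, or 0.115 adjusted over 11 within-library comparisons.

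LNP-P20-mAb 3 is also the library with the 46-barcode pair, and its 22.1% was the highest share with 2 TRA among barcodes with 1 TRB. With each distinct TRB set counted by its first barcode only, a setting chosen after seeing the data, members had 2 TRA in 27.8%, 17.6% and 22.4% of sets in LNP-P20-mAb 1, 2 and 3, and in 36.7%, 33.6% and 36.3% in LNP-Ctrl 1, 2 and 3. Sets of 1 TRB then lay at 10.0% to 13.3% (11.8% in LNP-P20-mAb 3), below the members in all 6 libraries. The difference was 17.4 percentage points (exact sign-flip p = 0.03125, the smallest it can give, not adjusted). Over barcodes, the mean number of TRA per member was 1.25 ± 0.108, against 1.03 ± 0.0611 in barcodes with 1 TRB (SD, n = 6, exact sign-flip p = 0.0625, adjusted p = 0.0982). This difference of 0.219 takes in the barcodes without a TRA, which members did not have. With them left out, a setting also chosen after seeing the data, barcodes with 1 TRB had a mean of 1.13 TRA, the difference was 0.124 ± 0.134 and members lay above in 5 of 6 libraries (exact sign-flip p = 0.0938, not adjusted). The share with 2 TRA then differed by 12.4 percentage points.

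Between the treatments, members with 1 TRA made up 77.3%, 87.5% and 87.1% in LNP-P20-mAb 1, 2 and 3, against 63.8%, 67.5% and 65.0% in LNP-Ctrl 1, 2 and 3. The groups did not overlap, with means of 83.9% ± 5.78 and 65.4% ± 1.88 (SD, n = 3 each, exact permutation p = 0.1, adjusted p = 0.2). The share of members in recurring pairs was also higher in every LNP-P20-mAb library. Its part in the difference was not tested beyond counting each set once. That left 12.9 percentage points and no change of the exact permutation p of 0.1.

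**Figure D3:**
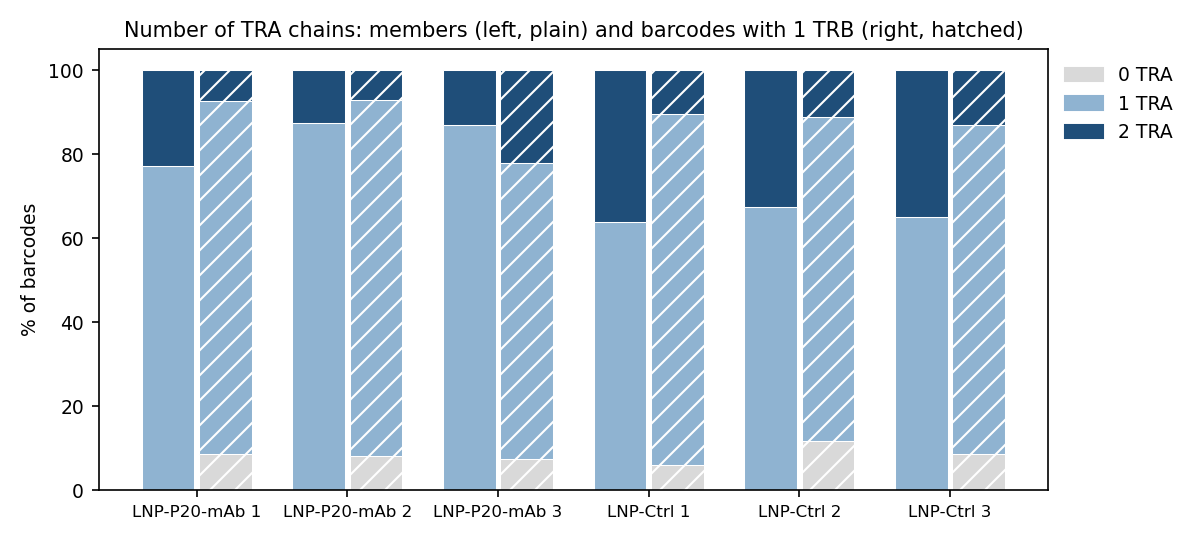
Share of barcodes with 0, 1 and 2 TRA chains in members (left, plain bars) and in barcodes with 1 TRB (right, hatched bars) of each library. Members hold no barcode without a TRA, and 2 TRA are more frequent in members than in barcodes with 1 TRB in all libraries but LNP-P20-mAb 3.

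Members carried about the TRB transcripts of 2 barcodes with 1 TRB. The median sum of TRB UMIs was 33.5, 41.5 and 35 in members of LNP-P20-mAb 1, 2 and 3, and 38, 27 and 29 in members of LNP-Ctrl 1, 2 and 3. In barcodes with 1 TRB the medians were 18, 20 and 17 in the LNP-P20-mAb libraries, and 20, 13 and 14 in the LNP-Ctrl libraries. The lowest member median thus lay above the highest median of barcodes with 1 TRB. The log2 ratio averaged 1.00 ± 0.07 (SD, n = 6), a 2.01-fold difference that was positive in 6 of 6 libraries. Its exact sign-flip p was 0.03125, the smallest that 64 flips can give, and 0.0688 adjusted over the 11 comparisons. A member's sum takes in a second chain by rule. The direction was thus largely set in advance, and the p is not read as a finding.

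Taken apart, the stronger TRB of a member had a median of 20, 27.5 and 23 UMIs in LNP-P20-mAb 1, 2 and 3, and of 23, 16 and 18 UMIs in LNP-Ctrl 1, 2 and 3. The weaker had 12, 13 and 11 UMIs in the LNP-P20-mAb libraries, and 14, 9 and 11 in the LNP-Ctrl libraries. The stronger chain lay above the TRB of barcodes with 1 TRB by 0.32 ± 0.12 on the log2 scale, and the weaker chain differed from it by -0.54 ± 0.10 (SD, n = 6 libraries, the same direction in 6 of 6 for each, exact sign-flip p = 0.03125 and adjusted p = 0.0688 for each). Ordering a pair by its UMIs gives part of both differences and favours their directions in advance, so their p-values are not read as findings.

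The weaker chain was seldom marginal. It held at least 25% of the TRB UMIs in 605 members (82.5%), 10% to 25% in 122 and less in 6, and it had 2 UMIs or fewer in 22. Its median share was 35.4%, 36.5% and 33.3% in LNP-P20-mAb 1, 2 and 3, against 40.0%, 36.8% and 37.0% in LNP-Ctrl 1, 2 and 3. The means were 35.1% ± 1.60 and 37.9% ± 1.79 without overlap, a difference of -2.87 percentage points (SD, n = 3 each, exact permutation p = 0.1, adjusted p = 0.2). It was -1.84 without LNP-Ctrl 1 (exact p = 0.2) and -2.0 without LNP-P20-mAb 3 (exact p = 0.3). Against the weaker of 2 TRA chains on barcodes with 1 TRB, which took 38.2% ± 1.21 of TRA UMIs, the weaker TRB of members took 36.5% ± 2.18 of TRB UMIs (SD, n = 6). This difference of -1.70 percentage points was at or below 0 in every library (exact sign-flip p = 0.0625, adjusted p = 0.0982).

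**Figure D4:**
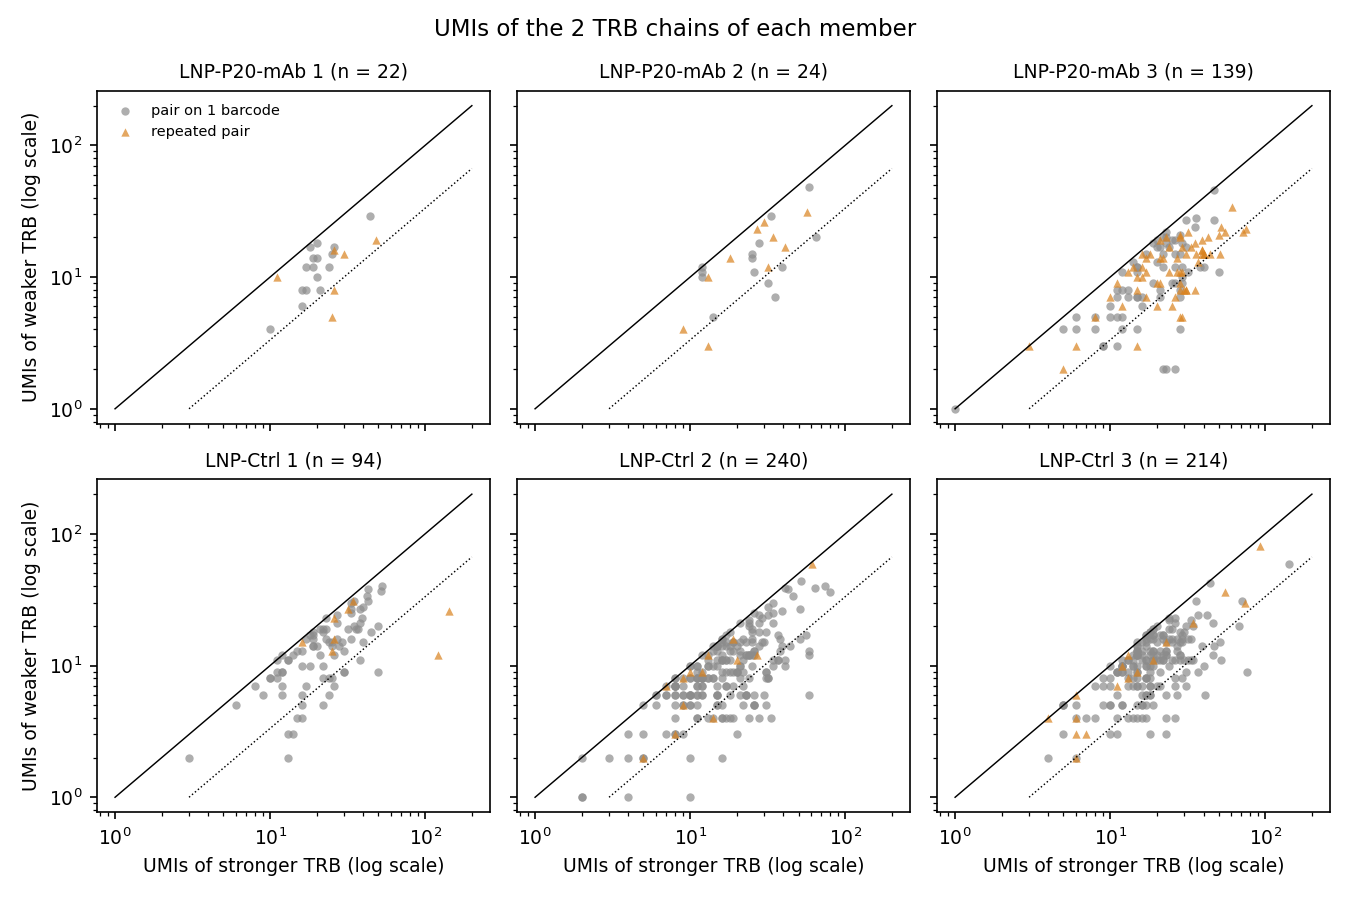
UMIs of the stronger and the weaker TRB chain of each member, on log scales, by library. Grey circles are pairs on 1 barcode and orange triangles are pairs on 2 or more barcodes, the solid line marks equal UMIs and the dotted line a weaker chain with 25% of the TRB UMIs. Most members lie between the lines in every library.

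The α transcripts differed less. The median sum of TRA UMIs was 10.5, 11.5 and 8 in members of LNP-P20-mAb 1, 2 and 3, and 11, 7 and 8 in members of LNP-Ctrl 1, 2 and 3. In barcodes with 1 TRB it was 8, 9 and 9 in the LNP-P20-mAb libraries, and 10, 6 and 6 in the LNP-Ctrl libraries. The log2 ratio averaged 0.23 ± 0.22 and was positive in 5 of 6 libraries, with LNP-P20-mAb 3 the exception (exact sign-flip p = 0.0938, adjusted p = 0.115). Members with 1 TRA, set against barcodes with 1 TRB and 1 TRA, differed by 0.08 ± 0.30 on the log2 scale, above 0 in 3 libraries and below 0 in 3 (SD, n = 6, exact sign-flip p = 0.531, adjusted p = 0.584).

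Among members, those with 2 TRA had medians of 11, 31 and 14.5 TRA UMIs in LNP-P20-mAb 1, 2 and 3, and of 17, 11 and 11 in LNP-Ctrl 1, 2 and 3. Those with 1 TRA had 10, 11 and 7 in the LNP-P20-mAb libraries, and 8.5, 5 and 6 in the LNP-Ctrl libraries. The TRB sums of these 2 classes were close in 5 libraries, for example 28 UMIs with 2 TRA and 26.5 UMIs with 1 TRA in LNP-Ctrl 2. The exception was LNP-P20-mAb 2, with 23 UMIs over 3 members with 2 TRA and 44 UMIs over 21 members with 1.

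Most members had no TRB chain in common with the barcodes that carried 1 TRB. In 561 members (76.5%) neither TRB was found on a barcode with 1 TRB, in 148 (20.2%) 1 chain was and in 24 (3.27%) both were. A TRB chain of a member was found on a barcode with 1 TRB in 18.2%, 10.4% and 36.0% of cases in LNP-P20-mAb 1, 2 and 3, and in 11.2%, 8.75% and 4.67% in LNP-Ctrl 1, 2 and 3. Other cells of a member's own clone can be members too, so these shares leave out part of its clone and are not set against those of barcodes with 1 TRB.

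Looked for on any other barcode of the library, a TRB chain of a member was found in 36.4%, 47.9% and 54.7% of cases in LNP-P20-mAb 1, 2 and 3, and in 19.7%, 13.5% and 12.6% in LNP-Ctrl 1, 2 and 3. The TRB of a barcode with 1 TRB was found in 86.2%, 85.2% and 59.2% of cases in the LNP-P20-mAb libraries, and in 50.8%, 27.4% and 13.7% in the LNP-Ctrl libraries. Members lay below in 6 of 6 libraries, with differences from -49.8 percentage points in LNP-P20-mAb 1 to -1.12 in LNP-Ctrl 3. The difference averaged -22.9 ± 19.5 percentage points (SD, n = 6, exact sign-flip p = 0.03125, not adjusted), and this comparison was chosen after seeing the data. Barcodes with a TRA found on any other barcode made up 36.4%, 50.0% and 61.9% of members in LNP-P20-mAb 1, 2 and 3, and 25.5%, 25.8% and 15.4% in LNP-Ctrl 1, 2 and 3. Among barcodes with 1 TRB and a TRA the same share was 86.9%, 85.4% and 60.5% in the LNP-P20-mAb libraries, and 52.5%, 29.3% and 15.4% in the LNP-Ctrl libraries.

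Where a TRB chain was known from barcodes with 1 TRB and a TRA, the member could be checked for the α chain seen with it there. With 1 chain known, that α chain was present in 125 of 147 members (85.0%), and LNP-P20-mAb 3 gave 63 of the 125. Barcodes of 1 clone or 1 library are not independent, so no interval is given. The known chain was the stronger TRB in 92 of the 125, and 43 of the 125 had 2 TRA. Much of this came from recurring pairs. Among pairs on 1 barcode, the α chain of the known TRB was present in 68 of 90 members (75.6%), counted over all libraries. Of these 68 members, 41 had 2 TRA and 27 had 1, and the known chain was the stronger in 41, the weaker in 22 and equal in 5.

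Both chains were known, with a TRA for each, in 23 members. In 3 of them the chains were matched by 2 different TRA on the barcode, the arrangement that a pair of known clones in 1 droplet would give. These were 1 member of LNP-Ctrl 1 and 2 of LNP-Ctrl 2. Leaving out members with joint V names or equal CDR3 bases kept 2 of 22, 1 in each of these libraries. In 18 of the 23, both chains were matched by 1 and the same TRA. Of these, 17 were barcodes of 1 recurring pair of LNP-P20-mAb 3 and 1 was in LNP-Ctrl 1. In the other 2 members 1 of the chains was matched. The share of members with both chains found on barcodes with 1 TRB averaged 5.59% ± 6.18 in LNP-P20-mAb libraries and 1.48% ± 1.61 in LNP-Ctrl libraries (SD, n = 3 each, exact permutation p = 0.4, adjusted p = 0.457). The difference of 4.11 percentage points was 6.91 without LNP-P20-mAb 2, 0.792 without LNP-P20-mAb 3, and 0.748 with each distinct TRB set counted once (exact permutation p = 0.7). For members whose pair was seen once and whose chains were not found elsewhere, doublets and allelic inclusion cannot be told apart from these files.

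Segment use outside the rule was compared between members and barcodes with 1 TRB on numbers of distinct chains. Members held 834 distinct TRA chains over the 6 libraries. Of 134 TRBJ, TRAV and TRAJ segments with 30 or more chains, 0 were called by edgeR's quasi-likelihood test at an adjusted p under 0.05, which is 0% of those tested. At an unadjusted p under 0.05 there were 13, and DESeq2 also called 0, with 9 at an unadjusted p under 0.05. The median log2 difference over all 134 was -0.04. In simulated data at this depth the test recovered 50% of 2-fold and 93.75% of 4-fold higher segments, and 22.5% of 2-fold and 56.25% of 4-fold lower ones.

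For TRBJ, the highest log2 differences were 0.50 ± 0.25 (SE) for TRBJ1-6 and 0.44 ± 0.18 for TRBJ1-2, and the lowest were -0.23 ± 0.12 for TRBJ2-1 and -0.23 ± 0.15 for TRBJ2-3 (edgeR adjusted p from 0.403 to 0.682). TRBJ1-6 lay at 0.19 without LNP-Ctrl 2. The 6 TRBJ1 segments together made up 36.3% of the TRB chains of members and 32.2% of those of barcodes with 1 TRB, higher in members in 5 of 6 libraries. None of the 6 TRBJ1 and none of the 6 TRBJ2 segments were called. Their median log2 differences were 0.14 and -0.15, beside -0.04 over all segments.

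For TRAV, TRAV6D-4 had 9 chains in members and 36 in barcodes with 1 TRB (log2 difference 1.86 ± 0.54 (SE), edgeR adjusted p = 0.141). TRAV6-1 had 10 and 63 (1.11 ± 0.50, edgeR adjusted p = 0.457). TRAV4N-3 was found on 0 of the 834 TRA chains of members and on 82 chains of barcodes with 1 TRB. Against the floor of 3 counts over all libraries, 0.360% of member chains, it was at least 1.92-fold lower in members than its 0.691% in barcodes with 1 TRB (edgeR adjusted p = 0.141). TRAV4-2 was also at 0 in members, with 41 chains in barcodes with 1 TRB, a share under the floor. For TRAJ, TRAJ11 (0.57 ± 0.45) and TRAJ5 (0.56 ± 0.46) lay highest and TRAJ2 (-1.40 ± 0.80) and TRAJ28 (-1.14 ± 0.70) lowest on the log2 scale, with edgeR adjusted p from 0.682 to 0.687. TRAJ5 lay at 0.02 without LNP-Ctrl 2, at 0.93 without LNP-Ctrl 3 and at -0.09 when barcodes in place of distinct chains were counted. TRAJ28 rests on 3 chains of members, all in LNP-Ctrl 2, and its difference was -0.59 without LNP-Ctrl 3.

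The J segments of a pair show whether its chains used the same cluster. Both clusters were used in 328 members, TRBJ2 alone in 269 and TRBJ1 alone in 136. These counts and the shares below are of barcodes, so recurring pairs weigh on them. Pair 1 gave 46 of the 136 with TRBJ1 alone. In LNP-P20-mAb 2, pair 2 gave 5 of the 17 members with both clusters, and a recurring pair of TRBV3 with TRBV17 gave 3 more. In LNP-P20-mAb 1, pair 4 gave 4 of the 17 with TRBJ2 alone, and a recurring pair of TRBV13-1 with TRBV12-1 gave 2 more. The share with both was 18.2%, 70.8% and 35.3% in LNP-P20-mAb 1, 2 and 3, and 45.7%, 47.1% and 47.7% in LNP-Ctrl 1, 2 and 3. Drawing the clusters independently, at the TRBJ1 share of barcodes with 1 TRB in the same library, would give 44.7%, 43.7% and 36.2% in the LNP-P20-mAb libraries, and 35.7%, 43.8% and 44.4% in the LNP-Ctrl libraries. The difference averaged 2.70 ± 17.4 percentage points (SD, n = 6, exact sign-flip p = 0.594, adjusted p = 0.594), with LNP-P20-mAb 1 at -26.6 and LNP-P20-mAb 2 at 27.1 as its extremes, the libraries with 22 and 24 members. Without LNP-P20-mAb 2 it was -2.18. The constant segment belonged to the cluster of the J segment on every chain of members.

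V segments are described without a test, since the rule used them. TRBV23 (1.03% of distinct TRB chains in members, 0.567% in barcodes with 1 TRB), TRBV20 (4.68% and 2.90%) and TRBV30 (0.555% and 0.378%) had the highest ratios, at log2 0.86, 0.69 and 0.55. TRBV13-2 (0.555% and 1.21%), TRBV12-2 (3.73% and 5.58%) and TRBV12-1 (4.20% and 5.97%) had the lowest, at log2 -1.13, -0.58 and -0.51. These shares are pooled over the libraries. TRBV23, TRBV20 and TRBV30 were each higher in members in 4 of 6 libraries, TRBV13-2 was lower in members in 6, and TRBV12-2 and TRBV12-1 were each lower in 5. Members had 0 chains of TRBV13-2 in 4 of these libraries. TRBV23 and TRBV30 rest on 13 and 7 chains of members, and TRBV13-2 on 7. TRBV13-1 and TRBV13-3, which belong with TRBV13-2 to the Vβ8 family, were close between the classes, at log2 0.02 and 0.09.

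A name that joins TRBV12-2 and TRBV13-2, whose meaning the files do not give, took 8.64% of chains in members and 9.68% in barcodes with 1 TRB. It was on 110 members. Of these, 9 had TRBV12-2 on the other chain, so whether their V segments truly differ is not known. In 2 members, 1 each in LNP-Ctrl 1 and LNP-Ctrl 2, the 2 chains had the same CDR3 bases under the names TRBV12-1 and TRBV12-2, with 13 and 2 UMIs in LNP-Ctrl 1 and 10 and 1 UMIs in LNP-Ctrl 2.

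TRBV31, which joins by inversion, took 5.87% of chains in members and 4.49% in barcodes with 1 TRB (log2 0.38). It was on 81 members. Of these, 26 had TRBV31 on TRBJ1 with a partner on TRBJ2, 26 had TRBV31 on TRBJ2 with a partner on TRBJ1, 11 used TRBJ1 for both chains and 18 TRBJ2 for both. Counted by distinct pairs, the most frequent combination of V segments was TRBV16 with TRBV19, in 18 pairs on 22 members, out of 181 combinations seen. TRBV13-1 with TRBV12-1 stood on more members, since pair 1 held 46.

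**Figure D5:**
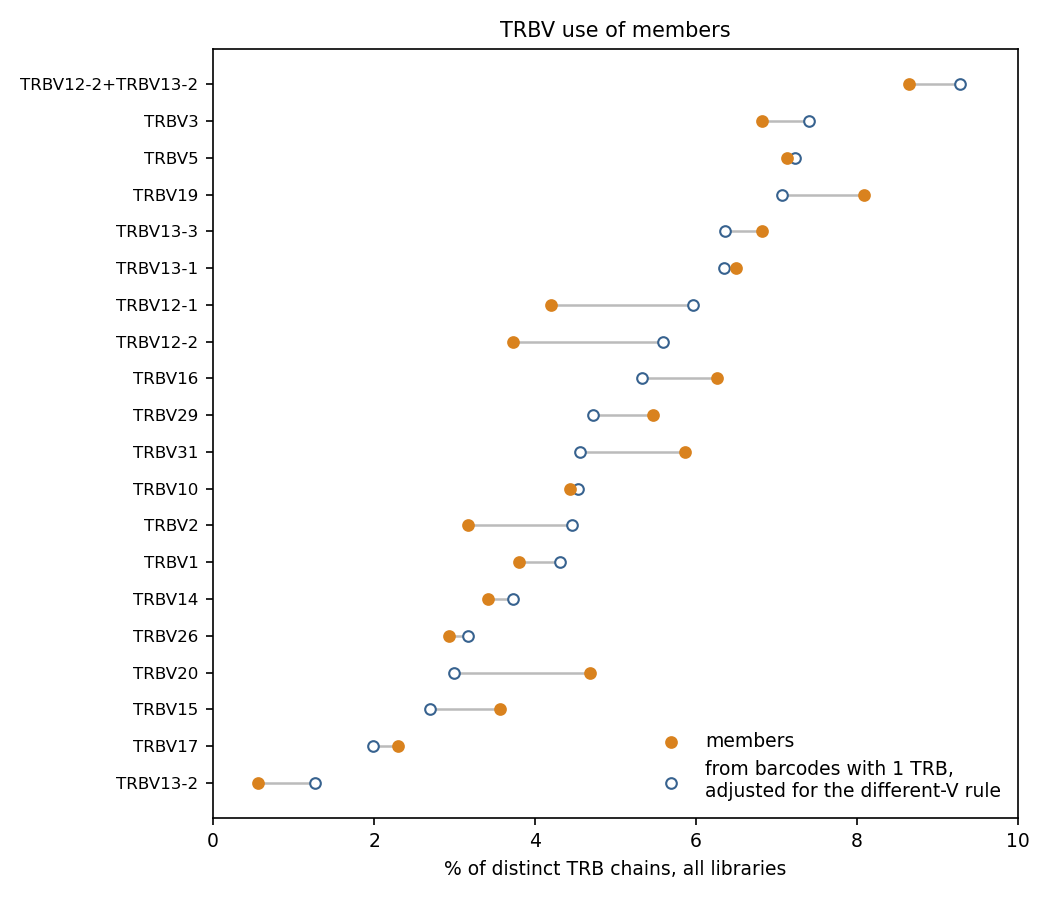
Share of each TRBV segment among distinct TRB chains of members (orange) and the share that barcodes with 1 TRB would give if pairs of the same segment were left out (open circles), over all libraries, for segments with 100 or more chains on barcodes with 1 TRB. TRBV12-1, TRBV12-2 and TRBV2 lie lower in members, and TRBV20 and TRBV31 lie higher.

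CDR3 loops of members were of nearly the same length as in barcodes with 1 TRB. Their mean TRB CDR3 length over distinct chains was 14.0, 13.4 and 13.8 residues in LNP-P20-mAb 1, 2 and 3, and 14.0, 13.8 and 13.7 in LNP-Ctrl 1, 2 and 3. Barcodes with 1 TRB lay between 13.9 and 14.1 in every library. The difference averaged -0.230 ± 0.217 residues, was below 0 in 6 of 6 libraries and ranged from -0.618 to -0.009 (SD, n = 6, exact sign-flip p = 0.03125, adjusted p = 0.0688). It was -0.152 without LNP-P20-mAb 2. In LNP-P20-mAb 1 and LNP-Ctrl 1 it was under 0.05 residues in size.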

How the data were processed

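The 6 TCR libraries were assigned to treatments by their titles. The deposited files list assembled chains with raw counts of UMIs and reads. Cell Ranger 8.0.1 is named in the submitters' processing notes. Coordinates are left out because the notes do not say how the builds they name were used. Cell and chain calling was the authors': a barcode or chain they dropped leaves no trace, every chain listed is productive, and no barcode has over 2 chains of a locus. Members, lists and comparisons were chosen with earlier results of these data known, and 4 comparisons after seeing the values. Named TRB pairs are the 5 on the most barcodes, of which 1 is not reported here, and named segments the highest and lowest by log2 difference (2 each for TRBJ, TRAV and TRAJ, 3 for TRBV, with TRBV31 and the joined name).

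Each library was 1 replicate. Treatments were compared with exact two-sided permutation tests (20 assignments), and members with barcodes with 1 TRB by exact two-sided sign-flip tests (64 flips). Benjamini-Hochberg adjustment covered 8 and 11 comparisons. The rule largely sets the direction for the TRB UMI sum and for TRB chains found on another barcode with 1 TRB. Ordering a pair by its UMIs favours the directions for its stronger and weaker chain. The small p-values of these comparisons lower other adjusted p-values among the 11. Segments with 30 or more distinct chains were tested with edgeR 4.0.16 (R 4.3.3), library as a block, distinct chains of the locus as library size and no further scaling, at an adjusted p of 0.05. DESeq2 1.42.0 was an alternative. On simulated data (16 of 134 segments changed, 20 draws) the segment test called 2.42% of unchanged segments. Other steps used Python 3.11.15 with scipy 1.17.1. Alternatives were leaving out each library, chains with 3 or more UMIs only, joint V names left out, LNP-P20-mAb 1 and 2 as 1 sample, equal cell barcodes left out, the replicate block, other cutoffs for tied pairs, each distinct TRB set counted once, barcodes without a TRA left out, and chains looked for on any other barcode. UMI totals per library ran from 85835 to 145847.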

Additional observations from a re-analysis of the deposited data

How the results depend on the processing

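With LNP-P20-mAb 1 and 2 as 1 sample, 5 values are left, for which the smallest exact sign-flip p is 0.0625, so the differences between members and barcodes with 1 TRB lost p under 0.05 by construction. They kept their direction: log2 1.01 for the TRB UMI sum, 0.32 for the stronger and -0.52 for the weaker chain, -0.209 residues of CDR3 length and -32.0 percentage points for TRB chains found on another barcode with 1 TRB, a share that members lower by construction. Leaving out 1 library in turn has the same limit. The same quantities then ranged from 0.99 to 1.03, from 0.29 to 0.35, from -0.58 to -0.52, from -0.274 to -0.152 and from -44.5 to -31.3. The rule largely sets the direction of the TRB UMI sum and of TRB chains found on another barcode. Ordering a pair by its UMIs favours that of the stronger and of the weaker chain. The stability of these quantities is not read as support. Use of both TRBJ clusters reversed to -2.18 without LNP-P20-mAb 2 and reached 8.55 without LNP-P20-mAb 1. With each distinct TRB set counted once (chosen after seeing the data), the difference in TRA number was 0.268 and in the share with 2 TRA 17.4 points, both at exact p = 0.03125. The log2 ratio of TRA UMIs in members with 1 TRA reversed to -0.014 with joint V names left out. Among members with 2 TRA, the α chain of a known TRB was present in 91.5%. With TMM factors 1 segment was lower, TRAV4N-3 (edgeR adjusted p = 0.0287, on 0 chains in members and thus at least 1.92-fold lower), as the median of all segments moved to -0.26 (DESeq2 -0.33). TRAJ5 reversed to -0.093 with barcodes counted. The causes were not tested. Whether the numbers 1 to 3 pair the libraries was not settled. The correlations of deviations of same-numbered libraries were 0.883, -0.317 and 0.432, over too few and related measures to decide it. With the replicate block the exact sign-flip p was 0.25 or more in each treatment comparison. The smallest that 3 pairs of libraries can give is 0.25, so this p could not fall lower. The differences were unchanged, at -2.30 points for the share of members and 31.5 points for recurring pairs. Counts of 22 and 24 members limit LNP-P20-mAb 1 and 2, where 3 barcodes would be 13.6% and 12.5%.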
